A study of Mus musculus with 22 samples.

Results

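The transcripts of 10 collagen genes were followed through 22 mouse RNA libraries: Col1a1 and Col1a2 (collagen I), Col3a1 (collagen III), Col5a1, Col5a2 and Col5a3 (collagen V), Col6a1, Col6a2 and Col6a3 (collagen VI), and Col12a1 (collagen XII). They were chosen by exact gene symbol, and all 10 were found among 34866 genes in the tables of cultured cells and among 23911 genes in the table of cartilage tissue. The study compared chondrocytes whose Dnmt1 gene had been deleted (conditional knockout, cKO) with controls, in culture and in tissue. DNMT1 is the enzyme that copies DNA methylation onto the new strand at CpG dinucleotides after replication.

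The cultures were primary chondrocytes of knee articular cartilage. Controls were labelled Dnmt1 flox and cKO cultures Prrx1-Cre;Dnmt1 flox/flox, so every culture carried a floxed Dnmt1 allele (the gene flanked by loxP sites). Whether a control carried 1 or both alleles as floxed is not given in the sources used here. At day 0 there were 3 control and 3 cKO cultures without treatment. At day 3 there were 4 control and 4 cKO cultures that had received the growth factor BMP2, labelled as 100 ng/µl. The tissue was cartilage of mice at postnatal day 5, digested with collagenase, in 4 samples labelled flox (control) and 4 labelled cKO. In each tissue genotype, replicates 1 and 2 were male and replicates 3 and 4 female. Prrx1-Cre acts in the mesenchyme of the limb bud, from which cartilage, bone, tendon and connective tissue of the limb all arise, so the deletion is not limited to chondrocytes.

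Collagens are triple helices of 3 chains, and the genes studied here encode the chains of fibrous and bony tissue rather than those typical of cartilage. Collagen I, built from Col1a1 and Col1a2 chains, is the main fibril of bone, tendon and fibrous tissue, and collagen III forms thinner fibrils beside it. Collagen V sits inside these fibrils and limits their diameter. Collagen VI forms beaded microfibrils, in cartilage mainly around each chondrocyte, and collagen XII lies on the fibril surface. Hyaline cartilage is instead built on collagen II (Col2a1) with collagens IX and XI. Chondrocytes that lose their identity in culture are known for exchanging collagen II for collagens I and III.

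The day 0 libraries held 41749327 to 51741478 estimated counts, the day 3 libraries 14434197 to 18918714, and the cartilage libraries 1100198 to 1888896 counts. Levels are given as CPM, the counts of a gene per 1000000 counts of the TMM-scaled library total. Dnmt1 itself was at 154 to 166 CPM in control and 26.9 to 32.8 CPM in cKO cultures at day 0, at 63.2 to 80.5 against 11 to 35.2 CPM on day 3, and at 35.1 to 48.1 against 11.4 to 13.5 CPM in cartilage. One library, cKO day 3 replicate 4, stood apart from the rest of its group. A chi-square comparison of its counts with the other cKO day 3 libraries gave 124 to 138 per degree of freedom, against 7.42 to 10.9 among the other three. Its chondrocyte markers summed to 458 CPM against 2726 to 3755 CPM in those libraries, and its skeletal muscle markers to 157 against 1212 to 2061 CPM. The day 3 genotype results of the 10 genes, and the gene list counts of that day, are therefore also given without it. All control cartilage libraries lay in one library pool and all cKO cartilage libraries in another, so pool and genotype cannot be told apart there. In bulk RNA, fewer cells of a type and less RNA per cell cannot be told apart either.

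The defining markers of chondrocytes were present in every group, but at lower levels in cKO. Summed over 10 chondrocyte markers, including Sox9 and Acan, untreated controls reached 22870 to 24090 CPM and untreated cKO cultures 6520 to 8199 CPM. With BMP2 the sums were 14230 to 22100 against 458 to 3755 CPM, and in cartilage 15460 to 20600 against 8533 to 14880 CPM. The 12 osteoblast markers had higher sums in cKO cultures, at 278 to 518 CPM against 229 to 242 CPM in control at day 0, and at 2765 to 4329 against 274 to 587 CPM at day 3. In cartilage 11 of the 12 were listed, and their sums spanned 611 to 1166 CPM in control and 141 to 1274 CPM in cKO. Bglap and Bglap2, which mark mature osteoblasts, were at the counting floor of 3 counts in every cartilage library. The 13 fibroblast markers overlapped between genotypes in cartilage (595 to 791 and 514 to 802 CPM) and at day 3 (697 to 990 and 898 to 1332 CPM). At day 0 they were at 570 to 638 CPM in control and 639 to 717 CPM in cKO. At day 3 the 11 skeletal muscle markers summed to 1.63 to 2.22 CPM for controls and 157 to 2061 CPM for cKO, with Myf5 at 0 in both groups. They summed to 12.9 to 14.3 against 74.7 to 80.05 CPM at day 0, also higher in every cKO library. In cartilage 8 of the 11 were listed and summed to 12.4 to 16.2 against 55 to 87.2 CPM. Only 2 of them passed the count filter there, both higher in cKO, where 3.15% of all genes tested were higher. Myog, Myf5, Myh3 and Myh8 were at the counting floor in both genotypes. The 5 smooth muscle and pericyte markers had higher sums in cKO cultures. Control and cKO sums were 29.8 to 35.9 against 120 to 132 CPM at day 0, and 13.2 to 17.3 against 49.4 to 167 CPM at day 3. Of 4 tested, 3 were higher and 0 lower at each day, where 33% of all genes were higher at day 0 and 25.5% at day 3. In cartilage their sums overlapped, at 78.1 to 166 CPM in control and 37.8 to 93.1 CPM in cKO. There 1 of 2 tested was lower and 0 higher, where 3.04% of all genes tested were lower. The 7 markers of tendon and joint surface summed to 62.7 to 114 against 156 to 253 CPM at day 3. Of the 4 tested there, 2 were higher in cKO (Scx and Prg4) and 1 lower (Mkx), where 25.5% of all genes tested were higher and 22.6% lower. These counts were the same without cKO replicate 4, where 28.8% of all genes tested were higher and 26.4% lower. Sums of the 7 overlapped between genotypes at day 0, at 180 to 198 and 167.5 to 186 CPM. In cartilage they overlapped too, at 3622 to 4895 and 3516 to 4660 CPM. The part of these other cell types in the collagen levels was not tested.

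The 10 genes lie on 6 chromosomes in GENCODE M21 (build GRCm38). Col3a1 (chromosome 1, 45311538 to 45349706, plus strand) and Col5a2 (chromosome 1, 45374321 to 45503282, minus strand) are neighbours, 24.6 kb apart with 0 annotated genes between them. Col6a2 and Col6a1 lie on chromosome 10 on the minus strand, 85.2 kb apart with 1 gene between. Because DNMT1 acts at CpG dinucleotides, CG was counted in the 250 bases before each gene's start in the RefSeq promoter table (GRCm38.p6), in which 7 of the 10 genes were matched, all but Col1a1, Col5a2 and Col12a1. Col3a1 had 0 CG, Col6a1 and Col6a3 3 each, Col1a2 11, Col6a2 14, Col5a3 17 and Col5a1 28, against a median of 6 over 27025 promoters. The windows of Col1a2, Col6a1 and Col6a2 overlapped annotated exons. The poorest and the richest window are shown because they mark the ends of this range, with every CG in capitals on the plus strand. They cover chr1:45311288-45311537 for Col3a1 and chr2:27886175-27886424 for Col5a1.
Col3a1: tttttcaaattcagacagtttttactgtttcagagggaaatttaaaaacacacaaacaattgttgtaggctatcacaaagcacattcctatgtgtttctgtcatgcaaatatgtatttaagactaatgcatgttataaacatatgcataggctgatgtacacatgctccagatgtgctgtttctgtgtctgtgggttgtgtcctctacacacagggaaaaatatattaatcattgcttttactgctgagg
Col5a1: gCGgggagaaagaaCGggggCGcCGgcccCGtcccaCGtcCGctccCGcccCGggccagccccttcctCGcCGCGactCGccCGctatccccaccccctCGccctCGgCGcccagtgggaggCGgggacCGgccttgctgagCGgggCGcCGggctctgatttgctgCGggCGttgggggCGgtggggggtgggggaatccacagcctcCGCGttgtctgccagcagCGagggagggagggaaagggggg
A window with no CG was found in 8.26% of all promoters, and one with at least 28 in 7.26%. No methylation was measured in these files, and a count of CG is a description of the sequence only.

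The 10 transcripts were at unequal levels, and their order differed from group to group. Per kilobase of transcript, the day 0 control cultures held most Col1a2 (427 ± 78.3 CPM per kb, SD, n = 3), then Col6a1 (397 ± 18.2), Col1a1 (378 ± 105) and Col5a2 (335 ± 45.5), and these neighbours in the order differed by less than their SD. Col3a1 (247 ± 32.4) and Col6a2 (239 ± 11.4) followed, also within their SD. Col12a1 (130.4 ± 5.11), Col6a3 (129 ± 11.2) and Col5a1 (122 ± 5.23) formed a lower set, and Col5a3, a minor collagen V chain, was at 1.17 ± 0.11. In the cKO cultures at day 0 the order began instead with Col5a2 (396 ± 33.9 CPM per kb, SD, n = 3) and Col6a1 (310.2 ± 27.2), while Col1a1 stood at 225 ± 27.3 and Col1a2 at 166 ± 38.5. At day 3, Col1a2 (800 ± 109 CPM per kb, SD, n = 4) and Col1a1 (713 ± 94.1) led in control, and Col1a1 led in cKO (1207 ± 169) ahead of Col1a2 (651 ± 69.4). At day 0 the 10 genes together took 1.21 to 1.49% of all counts in control and 1.05 to 1.18% in cKO, followed by 1.83 to 2.23% and 2.25 to 2.56% on day 3, and 4.73 to 9.50% and 2.66 to 5.79% in cartilage. The cartilage counts come from the 3′ end of each transcript, so they are not divided by length and are not compared with the cultures gene by gene.

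**Figure D1:**
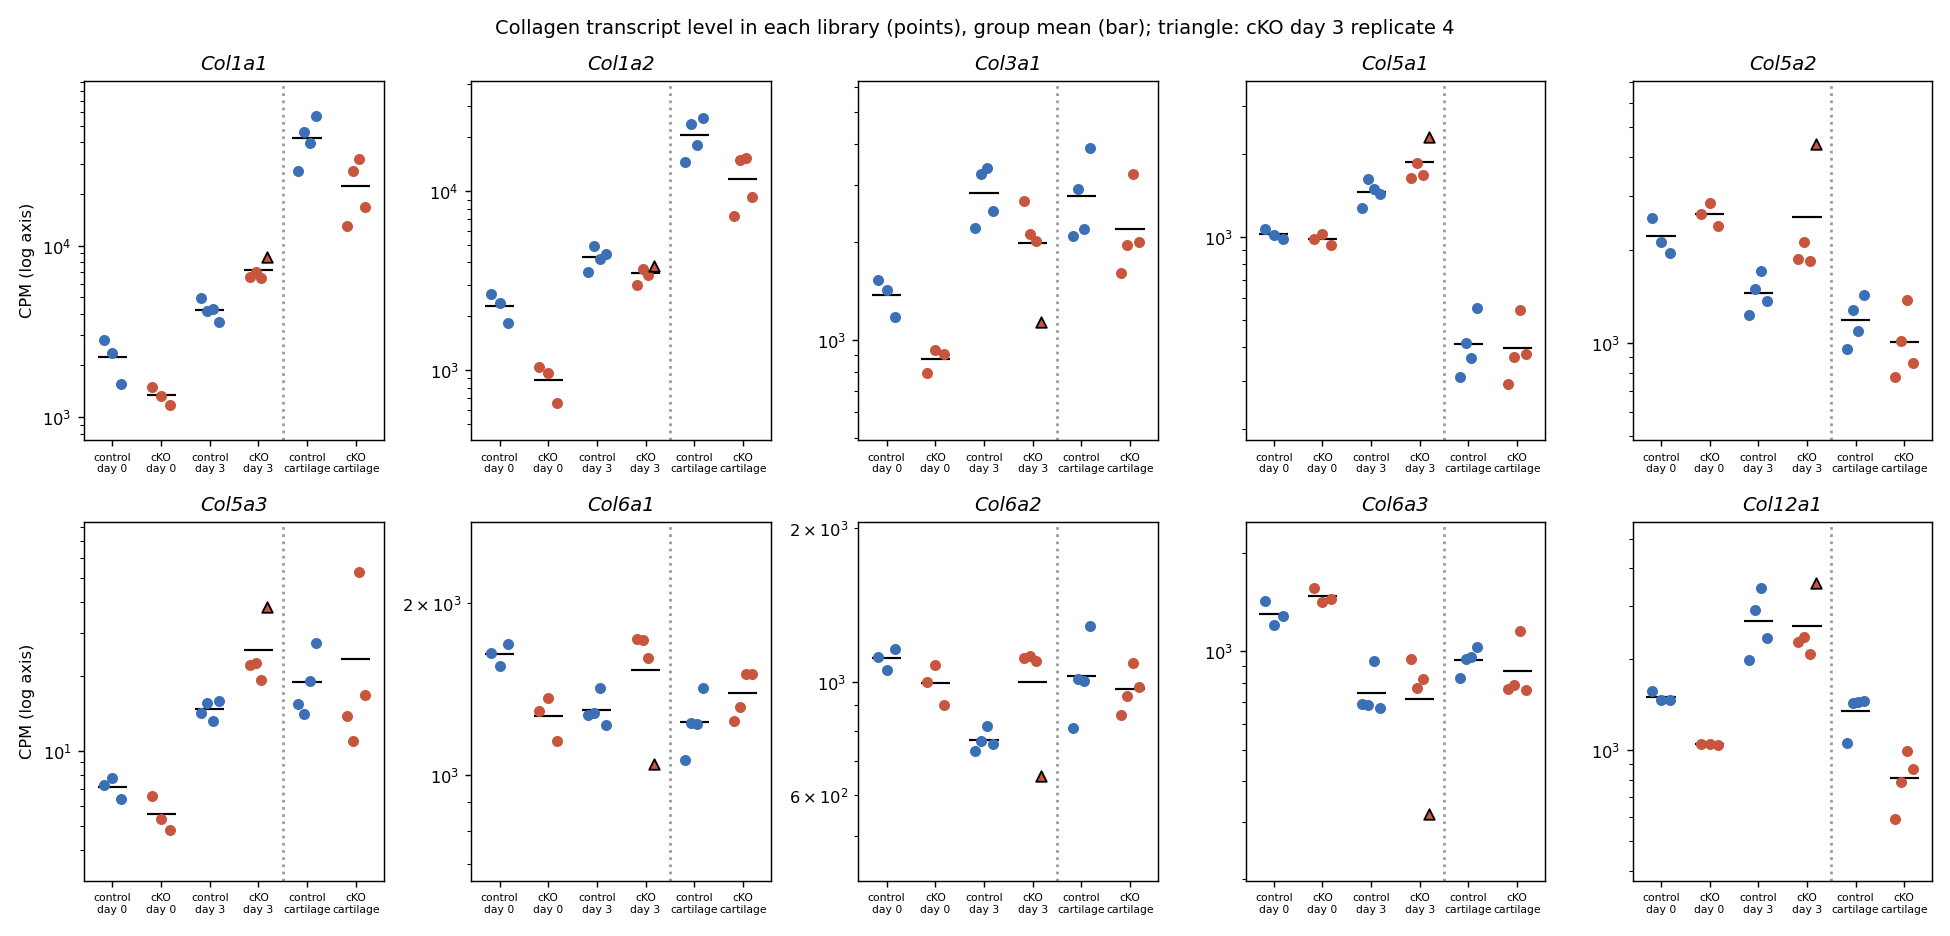
Level of each of the 10 collagen transcripts in every library, as CPM on a log axis whose range differs between panels; points are libraries, bars are group means, blue is control and red is cKO, and the triangle is cKO day 3 replicate 4. The dotted line separates cultures from cartilage, which were scaled separately. Col1a1 in cKO lies below control at day 0 (1175 to 1498 against 1566 to 2799 CPM) and above it at day 3 (6487 to 8622 against 3573 to 4933 CPM).

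In untreated cultures, collagen I, collagen III and collagen XII transcripts were lower in cKO than in control. Of the 10 genes, 6 were lower (Col1a1, Col1a2, Col3a1, Col5a3, Col6a1 and Col12a1) and 1 was higher (Col6a3) at an adjusted p under 0.05 in edgeR's quasi-likelihood test with Benjamini-Hochberg adjustment over 15530 genes. In the same comparison 31.6% of all genes tested were lower and 33% higher, 64.5% in all, so 7 of 10 lies near the share over all genes. Groups without overlap were seen for 5 of the 10 genes and for 70.3% of all genes tested. The median log2 fold change of the 10 was -0.37, against 0.01 over all genes tested.

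The collagen I chains had the largest falls in the cKO cultures. Col1a2, which encodes the α2 chain of collagen I, was at 2660, 2360 and 1834 CPM in the control cultures and at 1040, 968 and 652 CPM in the cKO cultures. Every cKO culture lay below every control culture, and the log2 fold change was -1.37 (SE 0.18, adjusted p = 0.00013), the largest among the 10 genes. Col1a1, the α1 chain, was at 2799, 2356 and 1566 CPM in control and at 1498, 1330 and 1175 CPM in cKO. Its groups did not overlap either, though the lowest control and the highest cKO culture were close, and the log2 fold change was -0.75 (SE 0.18, adjusted p = 0.00525). Col3a1 was at 1526, 1420 and 1174 CPM in control and at 790, 935 and 903 CPM in cKO. It was lower in all cKO cultures, with a log2 fold change of -0.66 (SE 0.098, adjusted p = 0.000308).

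Collagen XII showed the tightest groups. Col12a1 was at 1569, 1468 and 1466 CPM in control and at 1053, 1047 and 1041 CPM in cKO, a log2 fold change of -0.53 (SE 0.045, adjusted p = 8.46e-06). Among the collagen VI chains only Col6a1 fell beyond the threshold, from 1634, 1550 and 1699 CPM to 1298, 1368 and 1150 CPM (log2 fold change -0.36, SE 0.069, adjusted p = 0.00142). Col6a2 was at 1056 to 1161 CPM in control and 900 to 1080 CPM in cKO, overlapping groups with a log2 fold change of -0.17 (95% interval -0.33 to -0.01, adjusted p = 0.0547). Col6a3 was the exception in direction, at 1199 to 1423 CPM in control and 1417 to 1557 CPM in cKO (log2 fold change 0.17, SE 0.068, adjusted p = 0.0496). Its call was lost when control replicate 2, control replicate 3, cKO replicate 1 or cKO replicate 3 was left out.

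The collagen V chains did not move together. Col5a3 was at 6.396 to 7.76 CPM in control and 4.80 to 6.58 CPM in cKO, overlapping groups with a log2 fold change of -0.37 (adjusted p = 0.0292), and the call was lost without control replicate 1 or 2 or without cKO replicate 2 or 3. Col5a2 was at 1965 to 2551 against 2395 to 2845 CPM, with a log2 fold change of 0.24 (95% interval 0.01 to 0.46, adjusted p = 0.0678). Col5a1, the chain found in most collagen V molecules, was at 986 to 1074 against 940 to 1026 CPM (-0.07 on the log2 scale, 95% interval -0.18 to 0.04, adjusted p = 0.253). When all 14 cultures shared one estimate of the spread, only Col1a1 and Col1a2 remained among the 6 lower calls. Col3a1 then had an adjusted p of 0.0544 in edgeR, Col12a1 of 0.0559 and Col6a1 of 0.0891, with log2 fold changes of -0.65, -0.52 and -0.36.

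After BMP2, Col1a1 and 2 collagen V chains were higher in cKO than in control, and none of the 10 genes was lower. In edgeR's quasi-likelihood test 3 of 10 were higher at an adjusted p under 0.05 (Col1a1, Col5a2 and Col5a3), where 25.5% of 13924 genes tested were higher and 22.6% lower. The count of 3 higher is near that share. The median log2 fold change was 0.30 for the 10 genes and 0.01 for all genes tested. Without cKO replicate 4 the count was 5 higher (Col6a1 and Col6a2 in addition) and 0 lower, where 28.8% of 14159 genes tested were higher and 26.4% lower. The genes called over the whole table went from 6693 to 7808.

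Col1a1 was at 4933, 4148, 4259 and 3573 CPM in control and at 6532, 6992, 6487 and 8622 CPM in cKO. All 4 cKO cultures lay above all 4 controls, with a log2 fold change of 0.77 (SE 0.16, adjusted p = 0.00514), and of 0.66 without replicate 4 (adjusted p = 0.00186 in edgeR). Its partner chain did not follow. Col1a2 was at 3543, 4941, 4169 and 4452 CPM in control and at 2993, 3683, 3403 and 3839 CPM in cKO, overlapping groups with a log2 fold change of -0.29 (95% interval -0.62 to 0.05, adjusted p = 0.14), and of -0.35 without replicate 4 (adjusted p = 0.0509 in edgeR). Col3a1 was at 2210, 3228, 3372 and 2491 CPM in control and at 2679, 2118, 2016 and 1136 CPM in cKO, of which the lowest value is replicate 4. The Col3a1 groups overlapped, with a log2 fold change of -0.50 (95% interval -1.08 to 0.08, adjusted p = 0.139), and of -0.32 without replicate 4 (adjusted p = 0.151 in edgeR).

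Within collagen V, the size of the difference rested in part on 1 library. Col5a2 was at 1231, 1496, 1714 and 1366 CPM in control and at 1871, 2130, 1850 and 4406 CPM in cKO, the last in replicate 4. The log2 fold change was 0.83 (SE 0.30, adjusted p = 0.0457), and 0.42 without that library (adjusted p = 0.0154 in edgeR). The call was lost when any one of the 4 control libraries or cKO replicate 2 was left out. Col5a3 was at 14.2, 15.7, 13.2 and 15.9 CPM in control and at 22.1, 22.6, 19.4 and 38.1 CPM in cKO, again with replicate 4 highest, for a log2 fold change of 0.80 (SE 0.21, adjusted p = 0.0135) and of 0.53 without it (adjusted p = 0.00159 in edgeR). Col5a1 was at 1276 to 1629 CPM in control and 1634 to 2308 CPM in cKO, groups that did not overlap, with a log2 fold change of 0.37 (95% interval 0.04 to 0.70, adjusted p = 0.0631), and of 0.24 without replicate 4 (adjusted p = 0.0735 in edgeR). Groups without overlap were seen for 4 of the 10 genes and for 47.8% of all genes tested.

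For the collagen VI chains Col6a1 and Col6a2, cKO replicate 4 lay on the far side of the controls from the other cKO cultures. Col6a1 was at 1734, 1723 and 1604 CPM in the first 3 cKO cultures and at 1048 CPM in replicate 4, against 1273, 1287, 1422 and 1223 CPM in control. Col6a2 was at 1111, 1125 and 1100 CPM and then 653 CPM, against 732, 766, 820 and 755 CPM in control. With all 4 cKO cultures neither passed the test, with a log2 fold change of 0.24 for Col6a1 (adjusted p = 0.256) and of 0.38 for Col6a2 (adjusted p = 0.09). Without replicate 4 the values were 0.37 (adjusted p = 0.00485) and 0.53 (adjusted p = 0.000223). Col6a3 was at 671 to 933 CPM in control and at 944, 772, 821 and 318 CPM in cKO, and its log2 fold change of -0.06 had a 95% interval of -0.73 to 0.62. Without replicate 4 the value for Col6a3 was 0.18 (adjusted p = 0.275 in edgeR). For Col12a1, which was at 1989 to 3443 CPM in control and 2084 to 3560 CPM in cKO, the log2 fold change was -0.04 (95% interval -0.57 to 0.48, adjusted p = 0.893), and -0.26 without replicate 4 (adjusted p = 0.245 in edgeR).

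In cartilage tissue at postnatal day 5, Col12a1 was the only one of the 10 genes to pass the test, and it was lower in cKO. That is 1 of 10 lower and 0 higher, where 3.04% of 8793 genes tested were lower, 3.15% higher and 6.19% changed in either direction in edgeR's quasi-likelihood test with sex as a covariate. At an unadjusted p under 0.05 there were 3 of the 10 genes, and 1905 of all 8793 genes tested. The median log2 fold change of the 10 genes was -0.14, against 0.01 over all genes tested. Groups without overlap were seen for 1 of the 10 genes and for 13.4% of all genes tested.

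Col12a1 was at 1061, 1437, 1449 and 1459 CPM in control cartilage and at 594, 784, 992 and 870.1 CPM in cKO cartilage. The groups did not overlap, and the log2 fold change was -0.71 (SE 0.15, adjusted p = 0.0113). Leaving out control replicate 2 gave an adjusted p of 0.058 in edgeR and leaving out cKO replicate 1 one of 0.0602, so each ended the call. Collagen I varied widely between the tissue libraries. Col1a1 was at 27350, 46020, 39480 and 57060 CPM in control and at 12940, 27200, 31860 and 16800 CPM in cKO. One cKO library, replicate 3, exceeded the lowest control, and the log2 fold change was -0.89 (95% interval -1.54 to -0.24, adjusted p = 0.102). Col1a2 was at 14600, 23670, 18180 and 25850 CPM in control and at 7318, 14880, 15270 and 9321 CPM in cKO, and its log2 fold change was -0.77 (95% interval -1.35 to -0.19, adjusted p = 0.11). Both collagen I chains passed the threshold in edgeR when cKO replicate 2 was left out, with adjusted p-values of 0.0452 and 0.0461. That library held 1274 CPM of osteoblast markers, and the other cKO libraries 141 to 293 CPM, while the controls held 611 to 1166 CPM. Replicate 3 had the lowest of these sums, 141 CPM, and the highest Col1a1 and Col1a2 among the cKO libraries. Of 6 osteoclast markers, 3 passed the count filter, and all 3 were lower in cKO (sums of 121 to 461 CPM in control and 56.8 to 112 CPM in cKO). Of 7 macrophage and blood markers, 3 passed it, and 2 were lower (157 to 794 and 20.3 to 333 CPM). Over all genes tested 3.04% were lower. The part of bone and blood cells in the collagen I levels was not tested.

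The other 7 genes did not pass the test in the tissue. Col3a1 was at 2091 to 3901 CPM in control and 1604 to 3230 CPM in cKO (log2 fold change -0.31, 95% interval -0.77 to 0.14). Col5a1 (-0.02, interval -0.39 to 0.34) and Col5a2 (-0.20, interval -0.58 to 0.18) had intervals on both sides of 0. Col5a3 was at 14.1 to 27.2 CPM in control and at 13.8, 11, 52.5 and 16.8 CPM in cKO, so its mean rested on replicate 3. Col6a1 was at 1063 to 1423 against 1245 to 1505 CPM (0.21, interval -0.08 to 0.49), Col6a2 at 812 to 1285 against 861 to 1090 CPM (-0.05, interval -0.35 to 0.25), and Col6a3 at 829 to 1030 against 763 to 1157 CPM (-0.08, interval -0.41 to 0.24). Adjusted p-values of these 7 genes ran from 0.392 to 0.951. The genotype difference did not pass a test of its own difference between the sexes for any of the 10 genes in edgeR, where 0.0103% of 9687 genes tested did. In males and females the log2 ratio of mean CPM was -0.87 and -0.99 for Col1a1, and -0.86 and -0.64 for Col12a1.

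**Figure D2:**
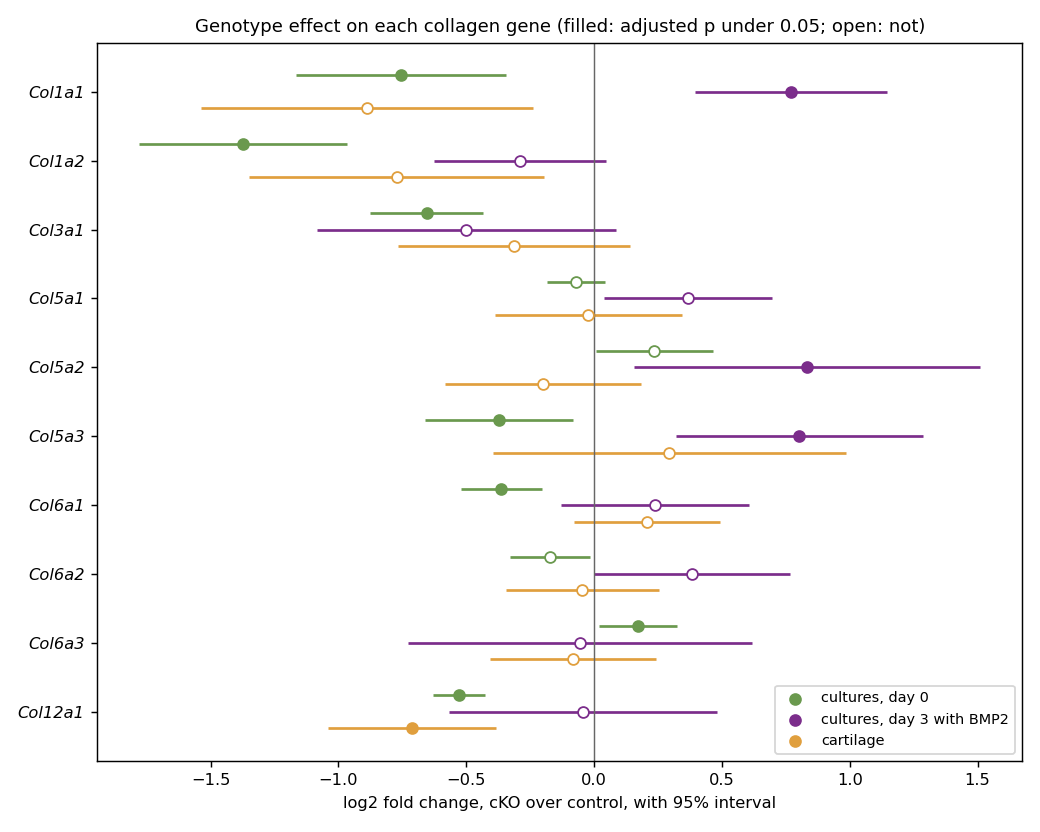
Log2 fold change of cKO over control for each collagen gene, with its 95% interval, in day 0 cultures, day 3 cultures with BMP2 and cartilage; filled points have an adjusted p under 0.05 in edgeR's quasi-likelihood test and open points do not. Col1a1 lies at -0.75 at day 0, at 0.77 at day 3 and at -0.89 in cartilage, and Col12a1 at -0.53, -0.04 and -0.71.

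Between day 0 and day 3 with BMP2, both collagen I chains, Col3a1, Col5a1, Col5a3 and Col12a1 rose in both genotypes, and Col6a3 fell in both. In control cultures 6 of the 10 genes were higher at day 3 (Col1a1, Col1a2, Col3a1, Col5a1, Col5a3 and Col12a1) and 2 were lower (Col6a2 and Col6a3), where 28.1% of 14909 genes tested were higher and 28.8% lower, 56.9% in all. In cKO cultures the same 6 genes were higher and Col6a3 was lower, where 32.4% of all genes were higher and 29.8% lower, 62.2% in all. All 10 genes had groups without overlap between the days in control, as had 64.3% of all genes tested, and 7 of 10 in cKO, as had 62.8%. The median log2 change of the 10 genes was 0.68 in control and 1.06 in cKO, and that of all genes tested was 0 and 0.02. Without cKO day 3 replicate 4, 8 genes were higher in cKO (Col6a1 and Col6a2 in addition) and 2 lower (Col5a2 in addition), while the genes called over the whole table went from 9274 to 9962. Day, BMP2 and the count table change together here, so their parts cannot be told apart.

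Col1a1 rose most in the cKO cultures, from the lower starting level described above. The mean of Col1a1 went from 2240 ± 625 CPM (SD, n = 3) to 4228 ± 558 CPM (n = 4) in control, a log2 change of 0.93 (SE 0.19, adjusted p = 0.00102 in edgeR). In cKO it went from 1334 ± 162 to 7158 ± 1002 CPM, a log2 change of 2.43 (SE 0.20, adjusted p = 6.88e-07 in edgeR) or 5.39-fold. The difference between these changes, which is the interaction of genotype and day, was 1.5 on the log2 scale (SE 0.26, 95% interval 0.93 to 2.07, adjusted p = 0.00247 in edgeR). Col1a2 showed log2 changes of 0.92 in control and 1.98 in cKO, with an interaction of 1.06 (95% interval 0.52 to 1.61, adjusted p = 0.0124 in edgeR). For Col5a3 the changes were 1.06 and 2.20 and the interaction 1.15 (95% interval 0.54 to 1.75, adjusted p = 0.0146 in edgeR). These 3 were the members whose day changes differed between genotypes at the threshold, 3 of 10 higher where 9.94% of 14909 genes were higher and 6.89% lower, 16.8% in all. Without cKO day 3 replicate 4 the count was 5, with Col6a1 (0.73) and Col6a2 (0.70) in addition, while the genes called over the whole table went from 2509 to 4051.

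For the other 7 genes the difference between the genotypes' day changes did not pass the threshold. Col3a1 rose by 1.05 in control and by 1.19 in cKO on the log2 scale, and the interaction was 0.14 with an interval of -0.58 to 0.86. Col5a1 rose by 0.52 and 0.93 (interaction 0.42, interval 0.06 to 0.77, adjusted p = 0.106), and Col12a1 by 0.84 and 1.30 (interaction 0.46, interval -0.12 to 1.05). Col6a3 fell by 0.79 and by 1.04, its mean going from 1301 to 744 CPM in control and from 1473 to 714 CPM in cKO. Its fall in control lost the call without control day 0 replicate 1, or without control day 3 replicate 2 or 4. Col6a2 fell in control by 0.52 (adjusted p = 0.0119 in edgeR) and had a change of 0.02 in cKO (interval -0.32 to 0.36), with an interaction of 0.54 (adjusted p = 0.119). Col6a1 had changes of -0.31 in control and 0.27 in cKO, neither past the threshold. Without cKO day 3 replicate 4, both chains rose in cKO, Col6a1 by 0.42 (adjusted p = 0.000423 in edgeR) and Col6a2 by 0.18 (adjusted p = 0.0431). Col5a2, at means of 2216 and 1452 CPM in control and 2620 and 2564 CPM in cKO, had log2 changes of -0.60 (adjusted p = 0.0633) and -0.03 (adjusted p = 0.937). The Col5a2 change in cKO was -0.41 when the same library was left out (adjusted p = 0.0108 in edgeR).

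**Figure D3:**
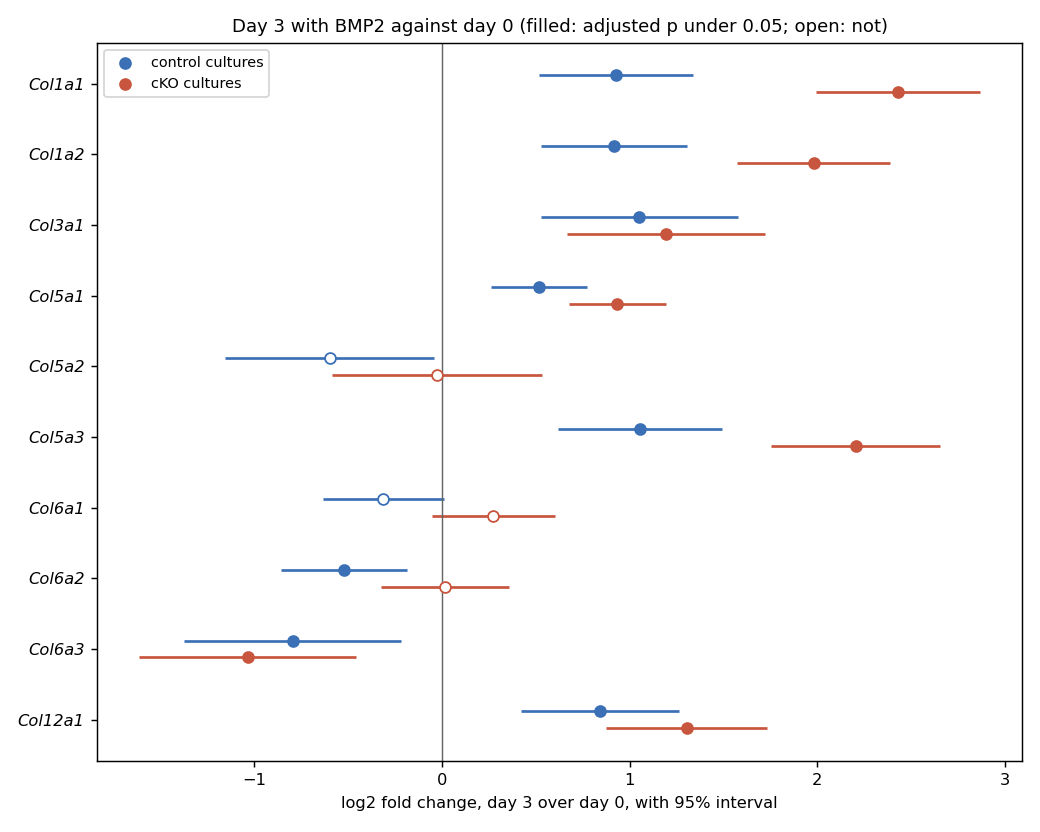
Log2 change from day 0 to day 3 with BMP2 for each collagen gene in control and in cKO cultures, with its 95% interval; filled points have an adjusted p under 0.05 in edgeR's quasi-likelihood test. The change of Col1a1 is 0.93 in control and 2.43 in cKO, and that of Col6a3 is negative in both (-0.79 and -1.04).

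The ratio between chains that share a molecule or a fibril was followed within each library, where scaling cancels. These ratios were chosen after values had been seen, and 12 were tested. In the cultures they are ratios of counts per kilobase. Col1a1 to Col1a2 was 0.95, 0.90 and 0.77 in the control cultures at day 0 and 1.30, 1.24 and 1.62 in the cKO cultures, groups without overlap at an exact two-sided permutation p of 0.1, the smallest that this design allows. With BMP2 the ratio was 1.26, 0.76, 0.92 and 0.72 in control and 1.97, 1.71, 1.72 and 2.03 in cKO, also without overlap (exact two-sided permutation p = 0.0286, the smallest possible, Benjamini-Hochberg adjusted 0.0686 over the 12). All cKO cultures thus held more Col1a1 relative to Col1a2 than any control at the same day. In cartilage, where the ratio is one of 3′ counts, it was 2.05 ± 0.17 (SD, n = 4) in control and 1.87 ± 0.15 in cKO (exact two-sided permutation p = 0.171).

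Relative to Col1a1, Col3a1 was lower in every cKO culture than in any control after BMP2. Col3a1 to Col1a1 was 0.67 ± 0.11 (SD, n = 3) in control and 0.71 ± 0.13 in cKO at day 0, and 0.48, 0.83, 0.84 and 0.74 in control against 0.44, 0.32, 0.33 and 0.14 in cKO at day 3 (exact two-sided permutation p = 0.0286, adjusted 0.0686). In cartilage it was 0.066 ± 0.0088 in control and 0.104 ± 0.023 in cKO (SD, n = 4, exact two-sided permutation p = 0.0571, adjusted 0.114), with overlapping groups. Col6a1 to Col6a2 was within a narrow range, 1.66 to 1.67 in control and 1.44 to 1.48 in cKO at day 0, 1.84 to 1.97 in control and 1.66 to 1.82 in cKO at day 3, and 1.11 to 1.31 and 1.38 to 1.54 in cartilage. It was lower in cKO at both culture days and higher in cartilage, each without overlap (exact two-sided permutation p = 0.1 at day 0, the smallest allowed there, and 0.0286 in the other two, adjusted 0.133 and 0.0686).

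Fibrous and cartilage collagen were set against each other as the ratio of Col1a1 to Col2a1. Untreated, the ratio was 0.023, 0.020 and 0.013 in control and 0.032, 0.024 and 0.024 in cKO cultures. Col1a1 itself was lower in those cKO cultures (log2 fold change -0.75), as was Col2a1, so the higher ratio there was no gain of Col1a1. With BMP2 the controls spanned 0.041 to 0.060, and the cKO cultures held 0.50, 0.72, 0.46 and 10.4, of which the last is replicate 4. Every cKO culture at day 3 lay above every control (exact two-sided permutation p = 0.0286, adjusted 0.0686), and the log2 difference of 4.50 was 3.43 without replicate 4. Both parts of the ratio differed at day 3, with Col2a1 at 71120 ± 3853 CPM (SD, n = 4) in control and 8103 ± 5196 CPM in cKO. The log2 fold changes were 0.77 for Col1a1 and -3.13 for Col2a1, or 0.66 and -2.75 without replicate 4. In cartilage the ratio was 0.50, 0.85, 0.56 and 1.24 in control and 0.35, 0.65, 1.86 and 0.59 in cKO, which overlapped (exact two-sided permutation p = 0.971).

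**Figure D4:**
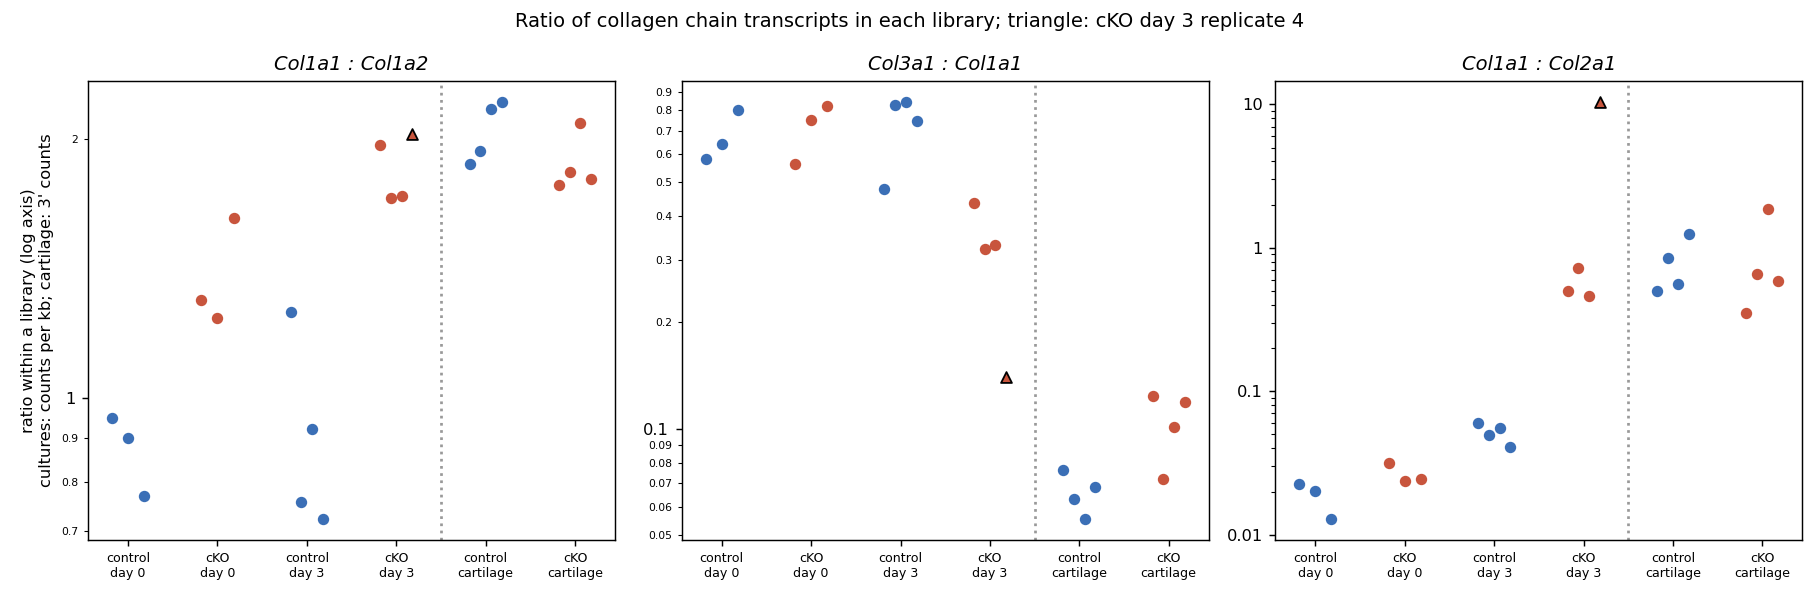
Ratio of collagen transcripts within each library on a log axis, per kilobase in the cultures and from 3′ counts in cartilage, which lie on either side of the dotted line; points are libraries, blue is control, red is cKO, and the triangle is cKO day 3 replicate 4. At day 3 Col1a1 to Col1a2 is 0.72 to 1.26 in control and 1.71 to 2.03 in cKO, and Col1a1 to Col2a1 is 0.041 to 0.060 and 0.46 to 10.4.

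The collagens typical of cartilage were lower in cKO in both culture settings. Of all genes tested, 33% were higher and 31.6% lower at day 0, 25.5% and 22.6% at day 3, and 3.15% and 3.04% in cartilage. Without cKO replicate 4 the day 3 shares were 28.8% and 26.4%. Of 8 cartilage collagen genes, all 8 were lower in cKO at day 0, and 7 were lower and 1 (Col10a1, of hypertrophic cartilage) was higher at day 3 in edgeR. Without cKO replicate 4 the same 7 were lower and Col10a1 was no longer called, its log2 fold change going from 3.28 (adjusted p = 0.0402) to 0.82 (adjusted p = 0.0804). In cartilage tissue 2 of 8 were lower, Col9a3 and Col10a1. Col2a1 had log2 fold changes of -1.26 (adjusted p = 0.000347 in edgeR), -3.13 (adjusted p = 0.00717) and -0.88 (adjusted p = 0.0822) in the day 0, day 3 and tissue comparisons. Of 17 other collagens of fibrous tissue and basement membrane, 13 were tested at day 0, with 3 higher and 5 lower, and 14 at day 3, with 3 higher and 3 lower. Without cKO replicate 4 it was 3 higher and 6 lower of 15 at day 3, with Col4a1, Col4a2 and Col14a1 lower in addition, and the log2 fold change of Col4a1 turned from 0.55 to -0.96. Col16a1, a fibril-associated collagen, was lower in all 3 comparisons, with log2 fold changes of -1.97, -1.03 and -0.93, and the only gene of this list called in the tissue (adjusted p = 0.000549 in edgeR).

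Genes that process and assemble the collagen fibril changed in both directions. Among all genes tested, 33% were higher and 31.6% lower at day 0, 25.5% and 22.6% at day 3, and 3.15% and 3.04% in cartilage. Of 23 tested at day 0, 6 were higher and 14 lower in cKO, and at day 3, 5 were higher and 4 lower. The higher ones at day 3 were Lox, Prelp, Thbs2, Fn1 and Postn, and the lower ones Pcolce, Pcolce2, Fmod and Ogn. Without cKO replicate 4, 8 were higher and 8 lower, where 28.8% of 14159 genes tested were higher and 26.4% lower. Lox, the enzyme that starts collagen crosslinks, was at 1609 ± 344 CPM (SD, n = 4) in control and 3566 ± 396 CPM in cKO at day 3, a log2 fold change of 1.16 (adjusted p = 0.00101 in edgeR). Fn1, fibronectin, on which collagen fibrils assemble, was at 11430 ± 1479 and 25390 ± 4139 CPM (log2 fold change 1.16, adjusted p = 0.00183 in edgeR). Sparc, a collagen-binding protein of bone and other tissues, was lower at day 0 (log2 fold change -0.58, adjusted p = 0.000117 in edgeR) and had -0.34 at day 3 (adjusted p = 0.0996), or -0.48 without replicate 4 (adjusted p = 0.00431 in edgeR). The proteoglycan gene Bgn passed in neither with all libraries, and was lower at day 3 without replicate 4 (-0.40, adjusted p = 0.00606). In cartilage tissue 2 of 22 were lower (Loxl3 and Pcolce2) and 0 higher.

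Of 12 collagen receptors, 5 were higher and 4 lower in cKO at day 0, and 6 higher and 3 lower at day 3, or 7 higher and 4 lower without cKO replicate 4. The shares over all genes tested were 33% higher and 31.6% lower at day 0, and 25.5% and 22.6% at day 3. Without cKO replicate 4 the day 3 shares were 28.8% and 26.4%. The integrin α chains did not all move one way, with Itga1, Itga2 and Itga11 higher and Itga10 lower at day 3. Itga11, an α chain of fibroblasts that binds collagen I, was at 29.4 ± 10.9 CPM (SD, n = 4) in control and 477 ± 396 CPM in cKO at day 3 (log2 fold change 4.03, adjusted p = 0.00069 in edgeR), and the log2 fold change of Itga11 was 3.25 without replicate 4 (adjusted p = 9.69e-06). Itga10, the α chain of chondrocytes that binds collagen II, was at 153 ± 15 and 21.1 ± 9.72 CPM (log2 fold change -2.85, adjusted p = 0.000247 in edgeR). These 2 were chosen from the list after their values were seen. Mrc2, an endocytic receptor that takes up collagen fragments, was lower at day 0, at day 3 and in the tissue, with log2 fold changes of -0.64, -0.70 and -0.70. In the tissue it was the 1 receptor called among 11 (adjusted p = 0.00403 in edgeR), where 6.19% of all genes tested were called.

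TGF-β signalling is a known inducer of fibrillar collagen genes. Its part in the collagen levels here was not tested, and 6 of the 10 collagen genes were lower and 1 higher in cKO at day 0. Over all genes tested, 33% were higher and 31.6% lower at day 0, 25.5% and 22.6% at day 3, and 3.15% and 3.04% in cartilage. Without cKO replicate 4 the day 3 shares were 28.8% and 26.4%. Of 17 genes of this pathway and its response, 10 were higher and 3 lower in cKO at day 0. At day 3, 11 were higher and 1 lower (Ccn2), and in cartilage 0 of 16 were higher and 2 lower (Tgfb2 and Ltbp1). Their median log2 fold changes were 0.27, 0.86 and -0.22, against 0.01 over all genes tested in each. Without cKO replicate 4, 12 were higher and 2 lower at day 3, with Tgfbr2 higher and Tgfb2 lower in addition. Acta2, the smooth muscle actin of myofibroblasts, was at 189 ± 24.7 CPM (SD, n = 4) in control and 788 ± 694 CPM in cKO at day 3 (log2 fold change 2.07, adjusted p = 0.00952 in edgeR), and its log2 fold change was 1.22 without replicate 4 (adjusted p = 2.26e-05). Tgfbi was lower at day 0 (log2 fold change -0.52, adjusted p = 6.36e-06 in edgeR).

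Osteoblast and fibroblast genes were read beside the collagens. Over all genes tested, 33% were higher and 31.6% lower in cKO at day 0, 25.5% and 22.6% at day 3, and 3.15% and 3.04% in cartilage. Without cKO replicate 4 the day 3 shares were 28.8% and 26.4%. Of 9 osteoblast markers tested at day 3, 7 were higher and 0 lower in cKO, among them Spp1, the bone matrix protein osteopontin (log2 fold change 3.52, adjusted p = 8.07e-05 in edgeR), and Alpl, the phosphatase of mineralising cells (2.87, adjusted p = 0.000121). Without cKO replicate 4 it was 8 of 9, with Dmp1 in addition. At day 0 it was 4 of 8 higher and 0 lower. In cartilage 2 of 5 were lower, Runx2 (-0.66, adjusted p = 0.0321) and Alpl (-1.16, adjusted p = 0.0272), and 0 higher. The fibroblast markers were mixed, with 6 higher and 4 lower of 12 at day 0, 4 higher and 1 lower of 11 at day 3 with and without cKO replicate 4, and 1 higher (Mfap5) and 0 lower of 11 in cartilage.

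The genes whose level followed a collagen most closely over the 14 cultures differed from one collagen to another. Likeness was measured as Pearson's r of log2 CPM among 7783 other genes, those whose log2 CPM averaged 4 or more. The 10 collagen genes were left out of this ranking, so their likeness to each other is not shown. Because the cultures fall into 4 groups, r is a description with no test. Col1a1 was most like Mcur1 (r = 0.98), Postn (0.98), Ilvbl (0.97), Prrx1 (0.97) and Adprh (0.97). Col3a1 was most like Mgp, Angpt1, Ldhb, Cnn3 and Ppp1r3c, with r of 0.96 to 0.97. Among the genes most like Col12a1 were Tns1, Fbxl20, Atp6v0d1 and Steap2, with r of 0.97 to 0.98. Col6a1 had lower values, 0.83 to 0.89, with Stx4a, Nt5dc2, Rabep2, Slc12a2 and Grhpr. No gene was named for more than 1 of these 4 collagens.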

How the data were processed

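Expression was measured by RNA-seq in 14 culture libraries (directional kit) and 8 cartilage libraries (BRB-seq, a 3′ method with unique molecular identifiers), per the labels' protocols. For each culture day the authors deposited a separate table of estimated counts, which were rounded to whole numbers. For cartilage the deposited whole-number counts were the main values and the deposited estimated counts an alternative. Per the submitters' processing notes, the build was GRCm38 and the cartilage processing named UMI-tools 1.1.1, Trim Galore 0.6.7, HISAT2 2.2.1, featureCounts 2.0.1 and DESeq2 1.34.0. The culture aligner, the counter and whether counting used strand are not given in the sources used here.

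Genes were tested with edgeR 4.0.16 (R 4.3.3; TMM scaling, filterByExpr with a minimum count of 10 and a total of 15, quasi-likelihood F test, Benjamini-Hochberg adjustment over all genes tested, threshold 0.05). Genotype was tested in the libraries of its own setting, with sex as a covariate in cartilage. Day changes and their interaction with genotype were tested in all 14 cultures together. CPM in the text were scaled over all 14 cultures or over the 8 cartilage libraries, so a ratio of their means can differ slightly from a fitted fold change. Lengths for values per kilobase came from the longest protein-coding transcript in GENCODE M21. Alternatives were DESeq2 1.42.0, other scalings, no count filter, a replicate block, one fit over all cultures, the estimated cartilage counts and leaving out each library. Counting the gene lists without cKO day 3 replicate 4 was chosen after seeing the data. All 10 genes passed the count filter in every comparison. Chain ratios were compared with exact permutation tests in SciPy 1.17.1.

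The genes, the lists and the cell markers were chosen with earlier results of these data known. From each pathway list the 4 genes with the highest mean culture CPM served as examples, others only to break down a count of 5 or fewer or as stated. A few genes that these rules select are not reported here. The culture titles call the replicates biological, while the labels do not say that the cartilage samples came from separate litters. P-values set a difference against the spread between these samples. The 95% intervals of log2 fold changes come from the same edgeR fits as their p-values. Counting floors cover counting error only.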

Additional observations from a re-analysis of the deposited data

Results flagged for a closer look

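In 6 of 40 groups of 4 libraries, 1 library lay far from the other three. Chance flags about 1 independent group in 20, but the 10 genes were measured in the same libraries. The 40 groups are thus not independent, and the count of 6 cannot be held against that rate. Among the cKO cultures at day 3, replicate 4 was far above the others in Col5a2 (4406 CPM) and far below them in Col6a2 (653.3 CPM). Among the control cultures at day 3, replicate 3 was far above the others in Col6a3 (932.8 CPM). In cKO cartilage, replicate 3 was far above the others in Col5a3 (52.45 CPM) and in Col6a3 (1157 CPM). In control cartilage, replicate 1 was far below the others in Col12a1 (1061 CPM).

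The change from day 0 to day 3 differed between genotypes for 3 collagen genes in edgeR's interaction test. The difference was 1.5 on the log2 scale for Col1a1, 1.06 for Col1a2 and 1.15 for Col5a3, each larger in cKO.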

How the results depend on the processing

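Replicate numbers were not treated as pairing the samples in the main tests. Correlations of the deviations of same-numbered samples ran from -0.24 to 0.177, and not every sample correlated best with its own number. Each deviation was taken from the mean of few libraries, and in cartilage within sex, where the deviations of a genotype mirror each other. The check therefore cannot decide whether the numbers pair the samples. With the replicate number as a block, 2 genes instead of 1 were higher at day 0 and 3 instead of 1 lower in cartilage. The block ended the call of Col5a2 at day 3 (0.73, adjusted p = 0.0961 in edgeR). It brought calls for Col5a2 at day 0 (0.24, adjusted p = 0.0285) and in the control day change (-0.72, adjusted p = 0.0247), for Col1a1 (-0.94, adjusted p = 0.0431) and Col1a2 (-0.81, adjusted p = 0.0453) in cartilage, and for Col6a1 in the cKO day change (0.35, adjusted p = 0.0423).

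The count of genes higher at day 0 (1) was 0 with RLE scaling, 2 with library totals only, 2 without a count filter, 0 with all 14 cultures fitted together, and 0 to 2 when 1 library was left out. The count of lower genes there (6) was 2 with all 14 cultures fitted together. At day 3 the count of higher genes (3) was 5 with DESeq2 and 5 with all 14 cultures fitted together, and 2 to 5 when 1 library was left out. In cartilage the count of lower genes (1) was 2 with DESeq2, 3 without a count filter, 2 with the estimated counts, and 0 to 3 when 1 library was left out. The count of genes lower at day 3 in control (2) was 0 with library totals only and 1 to 2 when 1 library was left out, and in cKO (1) it was 1 to 2. The interaction count (3) was 3 to 5.

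Over all genes, calls at day 0 (10023) were 6260 with all 14 cultures fitted together, those in cartilage (544) were 357 with DESeq2, 1044 without a count filter and 362 without cKO replicate 4, and those of the interaction (2509) were 1591 to 4051 when 1 library was left out. For the difference between sexes (1) they were 33 without a count filter, 2 with the estimated counts and up to 6 when 1 library was left out.

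The signs that changed all belonged to values that had passed no test. With library totals only, which moved the median of all genes by 0.107 at day 0 and by 0.119 for the control day change, Col5a1 was 0.0376 at day 0, Col6a3 was 0.0176 at day 3, Col5a1 was 0.0169 and Col6a2 0.00302 in cartilage, and Col5a2 was 0.0432 for the cKO day change. When 1 library was left out, the values at day 3 spanned -0.222 to 0.182 for Col6a3 and -0.256 to 0.0962 for Col12a1. In cartilage they spanned -0.169 to 0.0819 for Col5a1, -0.337 to 0.581 for Col5a3, -0.117 to 0.0109 for Col6a2 and -0.243 to 0.00382 for Col6a3. For the cKO day change they spanned -0.411 to 0.0852 for Col5a2 and -0.0772 to 0.179 for Col6a2, and for the interaction -0.0538 to 0.337 for Col3a1 and -0.423 to 0.00732 for Col6a3. The log2 difference of Col3a1 to Col1a1 at day 0 spanned -0.0426 to 0.229, and that of Col1a1 to Col2a1 in cartilage -0.524 to 0.278. The cause was not tested.

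The depth of the cartilage libraries puts the counting floor at 1.57 to 2.72 CPM, under the level of every collagen gene named.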
